A study of Homo sapiens with 24 samples.

Results

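The interferon-stimulated genes described here are 48 genes whose transcription interferons are known to raise, among them ISG15, the IFIT, OAS, MX and GBP families and the chemokine CXCL10. They were chosen by symbol from a list, though with earlier results of these data known. All 48 were found among the 61533 genes of each deposited table. The deposited counts come from RNA of 4 human cancer lines 24 h after exposure to Piezo-CAP, a cold atmospheric plasma (CAP), a partly ionised gas that a piezoelectric discharge makes without much heat. Each line is labelled wild type and had 3 libraries of cells given 60 s of plasma (CAP) and 3 of cells given 0 s (Control), 24 libraries in 8 groups. Cal27 is a tongue and Fadu a hypopharynx squamous carcinoma line, A375 is a melanoma line and Hth83 bears the name of an anaplastic thyroid carcinoma line, although the labels count all 4 among head and neck cancers. Fadu was grown in MEM and the other lines in DMEM, so that line and medium cannot be told apart. Whether the libraries of a group are separate cultures is not stated, so p-values here reflect only the spread between these libraries, which may be technical.

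Interferons are secreted proteins that bind receptors on the cell surface, where the kinases JAK1, TYK2 and JAK2 phosphorylate transcription factors of the STAT family. Type I and type III interferons lead to a complex holding STAT2 and IRF9 that binds the interferon-stimulated response element (ISRE), whereas interferon gamma acts through the GAS element. The induced proteins block viral replication, sense foreign nucleic acid, attract T cells or restrain the signal itself, and some tumour lines transcribe them without added interferon.

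Promoter stretches of 6 members are printed because they carry the letters of the ISRE and because the 6 genes moved in different ways across the lines. They are RefSeq sequence of GRCh38.p14, written 5′ to 3′ on the gene's strand, all upstream of the annotated start, and capitals mark each match to GAAANNGAAA on either strand. The stretches lie at chr1:1013364-1013419 (plus strand) for ISG15, chr10:89392487-89392549 (plus) for IFIT1, chr3:122680790-122680838 (plus) for PARP14, chr19:17405725-17405780 (minus) for BST2, chr1:27672256-27672368 (minus) for IFI6 and chr4:76023689-76023738 (minus) for CXCL10.
ISG15: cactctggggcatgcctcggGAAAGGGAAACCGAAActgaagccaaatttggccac
IFIT1: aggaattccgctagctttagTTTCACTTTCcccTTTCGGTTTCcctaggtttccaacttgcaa
PARP14: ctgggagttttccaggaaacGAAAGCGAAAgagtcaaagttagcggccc
BST2: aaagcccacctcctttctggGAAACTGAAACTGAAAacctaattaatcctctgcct
IFI6: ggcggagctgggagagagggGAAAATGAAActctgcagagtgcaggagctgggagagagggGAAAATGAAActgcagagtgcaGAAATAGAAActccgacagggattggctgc
CXCL10: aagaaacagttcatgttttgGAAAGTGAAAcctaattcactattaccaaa

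RefSeq windows of 300 bases, from 250 before to 50 after an annotated start, were matched by symbol for 38 of the 48 members. GAAANNGAAA, searched on both strands with overlapping matches counted, was found for 24 of the 38 (63.2%) and for 4.38% of the 27305 genes with a window. The GAS letters TTCNNNGAA were found for 13 of the 38 (34.2%) and for 9.38% of all genes. ISG15, IFIT1 and BST2 hold 2 ISRE matches each, IFI6 holds 3, and PARP14 and CXCL10 hold 1 each. A match is a description of these letters and not a bound site.

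Total counts were 27.9 to 49.5 M (M for mega) per library. The labelled origin was checked against marker genes. SOX10, a factor of the melanocyte lineage, averaged 787 ± 18.2 TPM in CAP and 956 ± 14.5 TPM in Control A375 (SD, n = 3 each). It made up most of the 10 melanocyte markers, of which 5 averaged at least 1 TPM in Control A375, with PMEL, MLANA and DCT among those below. TP63 of squamous epithelium averaged 17.9 ± 1.5 TPM in CAP and 20 ± 0.705 TPM in Control Hth83, while the thyroid gene NKX2-1 had 0 counts in that line and TG and TSHR were at or near 0. PAX8, also a thyroid factor, averaged 38.2 ± 2.1 TPM in CAP and 27.8 ± 0.358 TPM in Control Hth83. The 8 thyroid markers summed to 27.9 TPM in Control Hth83, below 50.8 TPM in Control Cal27 and 47.3 TPM in Control Fadu. A thyroid signal was thus not particular to Hth83. Of 13 squamous markers, 12 averaged at least 1 TPM in Control Hth83. Hth83 is called by its label alone. The 16 leukocyte markers summed to 3.99 to 56.7 TPM in CAP and 2.44 to 55.7 TPM in Control libraries. CD3D was at 0 in all and PTPRC at or near 0, but others carried the sum. At least 1 TPM was averaged by 3 markers in Control Cal27, 5 in A375, 2 in Fadu and 2 in Hth83. The part of the leukocyte markers in the results below was not tested.

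Untreated cells differed widely in the level of these genes. The median of the 48 members was 72.9 TPM (transcripts per M, the authors' unit, scaled for gene length and depth) in Control Cal27, 53.4 TPM in Control Fadu, 5.75 TPM in Control A375 and 2.92 TPM in Control Hth83. All 48 members averaged at least 1 TPM in Cal27 and in Fadu, against 39 in A375 and 30 in Hth83. ISG15, a ubiquitin-like protein, averaged 581 ± 30.4 TPM in Cal27, 237 ± 4.08 TPM in Fadu, 3.43 ± 0.497 TPM in A375 and 5.84 ± 0.739 TPM in Hth83 (SD, n = 3 each). BST2, which tethers budding virus to the cell, averaged 1750 ± 74.8 TPM in Cal27, 256 ± 9.63 TPM in Fadu, 24.6 ± 1.55 TPM in A375 and 0.684 ± 0.48 TPM in Hth83. Both genes lay far higher in Cal27 and Fadu than in A375 and Hth83.

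Other members were closer between lines or stood in another order. EIF2AK2, the kinase PKR, averaged 45 ± 2.61 TPM in Cal27, 51.6 ± 0.283 TPM in Fadu, 31.6 ± 1.27 TPM in A375 and 32.1 ± 1.46 TPM in Hth83, so that it was also lower in A375 and Hth83 but by less. GBP2, a guanylate-binding GTPase, averaged 4.65 ± 0.133 TPM in Cal27, 5.81 ± 0.322 TPM in Fadu and 23.4 ± 1.47 TPM in A375, where it was highest. MX2, a GTPase that restricts retroviruses, averaged 62.8 ± 1.94 TPM in Cal27, 6.43 ± 0.109 TPM in Fadu and 22.9 ± 0.0495 TPM in A375, so that A375 lay above Fadu. No read of MX2, XAF1 or IFI44L was counted in any of the 6 Hth83 libraries, where a count of 0 allows up to 0.0792 to 0.101 CPM, or counts per M counts (3 counts of each library's total, counting error only).

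A test of the 12 Control libraries called a difference between lines for 48 of 48 members (edgeR quasi-likelihood F test, adjusted p under 0.05), but 94.8% of all genes tested were called as well, so that the count is close to the background. The directions were less even. Hth83 against Cal27 was higher for 0 members and lower for 48, while 35.5% of all genes were higher and 36.7% lower. A375 against Cal27 was higher for 1 member (GBP2) and lower for 47, while 43.1% of all genes were higher and 36.6% lower. Hth83 against Fadu was higher for 1 member (GBP3) and lower for 47, with 34.9% and 37.8% of all genes. A375 against Fadu was higher for 3 members (MX2, GBP2 and IFI35) and lower for 45, with 41.3% and 37.2% of all genes. Fadu against Cal27 was higher for 10 members and lower for 36 (37.1% and 35.7% of all genes), with a median member difference of -0.87 on the log2 scale. Hth83 against A375 was higher for 16 members and lower for 30 (34.2% and 40.7% of all genes), with a median of -0.96. The plot of untreated levels shows these ranges.

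**Figure D1:**
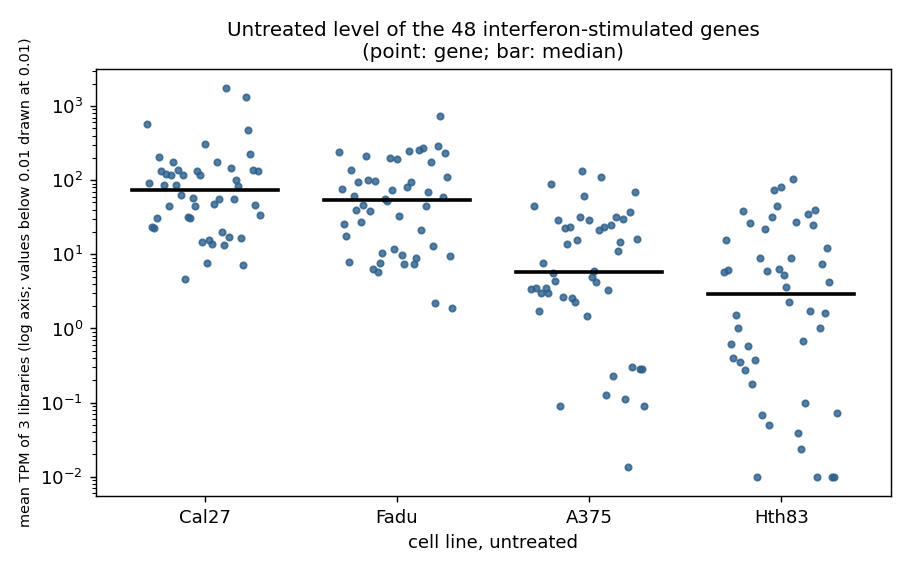
Mean TPM of 3 Control libraries (log axis) for each of the 48 interferon-stimulated genes (points) in the 4 lines, with the median as a bar; values below 0.01 TPM are drawn at 0.01. The medians were 72.9 TPM in Cal27, 53.4 TPM in Fadu, 5.75 TPM in A375 and 2.92 TPM in Hth83.

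After CAP the genes moved in opposite directions in different lines. In Cal27, 45 of 48 members fell, 1 (APOL6) rose and 2 (EIF2AK2 and ADAR) did not pass the test (edgeR quasi-likelihood test, Benjamini-Hochberg adjusted p under 0.05), while 23.2% of all genes tested were lower and 21.9% higher. In Fadu, 47 of 48 fell, 0 rose and GBP3 did not pass, while 27.0% of all genes were lower and 26.3% higher. In Hth83, 23 rose and 5 fell of the 37 members with enough counts to test, while 25.9% of all genes were higher and 24.2% lower. In A375, 9 rose and 11 fell of the 42 tested, while 25.7% of all genes were higher and 24.8% lower, so that the A375 shares lie near those of all genes. The members fell by 0.15 to 1.61 on the log2 scale in Cal27 and by 0.087 to 3.67 in Fadu, and they rose by 0.16 to 1.38 in Hth83.

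Markers of squamous epithelium moved in the same libraries. Of 13, 1 rose and 11 fell in Cal27, 5 rose and 7 fell in Fadu, 3 rose and 2 fell of 5 tested in A375, and 4 rose and 8 fell of 12 tested in Hth83. Their summed level averaged 4730 ± 93.1 TPM in CAP and 6380 ± 194 TPM in Control Cal27, and 13400 ± 560 TPM in CAP and 23900 ± 347 TPM in Control Fadu (SD, n = 3 each). It averaged 49.4 ± 4.23 TPM in CAP and 25 ± 1.03 TPM in Control A375, and 10600 ± 502 TPM in CAP and 12300 ± 254 TPM in Control Hth83. The sum was thus lower in CAP in Cal27, Fadu and Hth83 and higher in A375, and its part in the changes of the members was not tested.

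The members together took 0.595, 0.598 and 0.597% of the counts in CAP and 0.931, 0.932 and 0.938% in Control Cal27. In Fadu they took 0.408, 0.387 and 0.387% of the counts in CAP and 0.642, 0.654 and 0.655% in Control libraries. In Hth83 they took 0.145, 0.148 and 0.150% of the counts in CAP and 0.111, 0.115 and 0.114% in Control libraries. CAP and Control libraries did not overlap in these 3 lines, while in A375 they did, at 0.160 to 0.163% in CAP and 0.163 to 0.164% in Control libraries. The median log2 change of the tested members was -0.81 in Cal27, -0.94 in Fadu, 0.017 in A375 and 0.46 in Hth83. In bulk RNA, fewer cells with a transcript and less of it per cell cannot be told apart.

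Of the 48 members, 44 fell in both Cal27 and Fadu, and 20 of these rose in Hth83. IRF7 fell in all 4 lines, and 0 members rose in all 4. Of the 48, 4 (DTX3L, IFIH1, PARP14 and PARP9) fell in A375 and rose in Hth83. How many of all genes showed the same joint patterns was not counted, so these counts have no background beside them. The members with too few counts to test were CXCL10, CXCL11, EPSTI1, OASL, RSAD2 and XAF1 in A375 and BST2, CMPK2, CXCL10, CXCL11, DHX58, GBP2, IFI44L, MX2, RSAD2, TRIM22 and XAF1 in Hth83.

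Scaling by total counts alone, or by TPM, moved the zero of these comparisons. In Cal27 the median of all genes was 0.082 with total-count scaling and 0.20 on log2(TPM + 1). The calls over all genes in Cal27 were 3801 higher and 4031 lower in the reported fit, 4884 higher and 2945 lower with total-count scaling, and 5552 higher and 1108 lower on log2(TPM + 1). Total-count scaling gave 6491 higher and 4005 lower against 5031 and 5169 in Fadu, where the median of all genes became 0.11, and 3946 higher and 5961 lower against 5044 and 4856 in A375. Of the members, 3 were higher and 43 lower in Cal27 with total-count scaling and 3 higher and 38 lower on log2(TPM + 1), 0 higher and 46 lower in Fadu and 7 higher and 13 lower in A375 with total-count scaling. Their median was -0.73 and -0.55 in Cal27 and -0.84 in Fadu under those scalings, below that of all genes each time. The heatmap of changes by role shows the reported values.

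**Figure D2:**
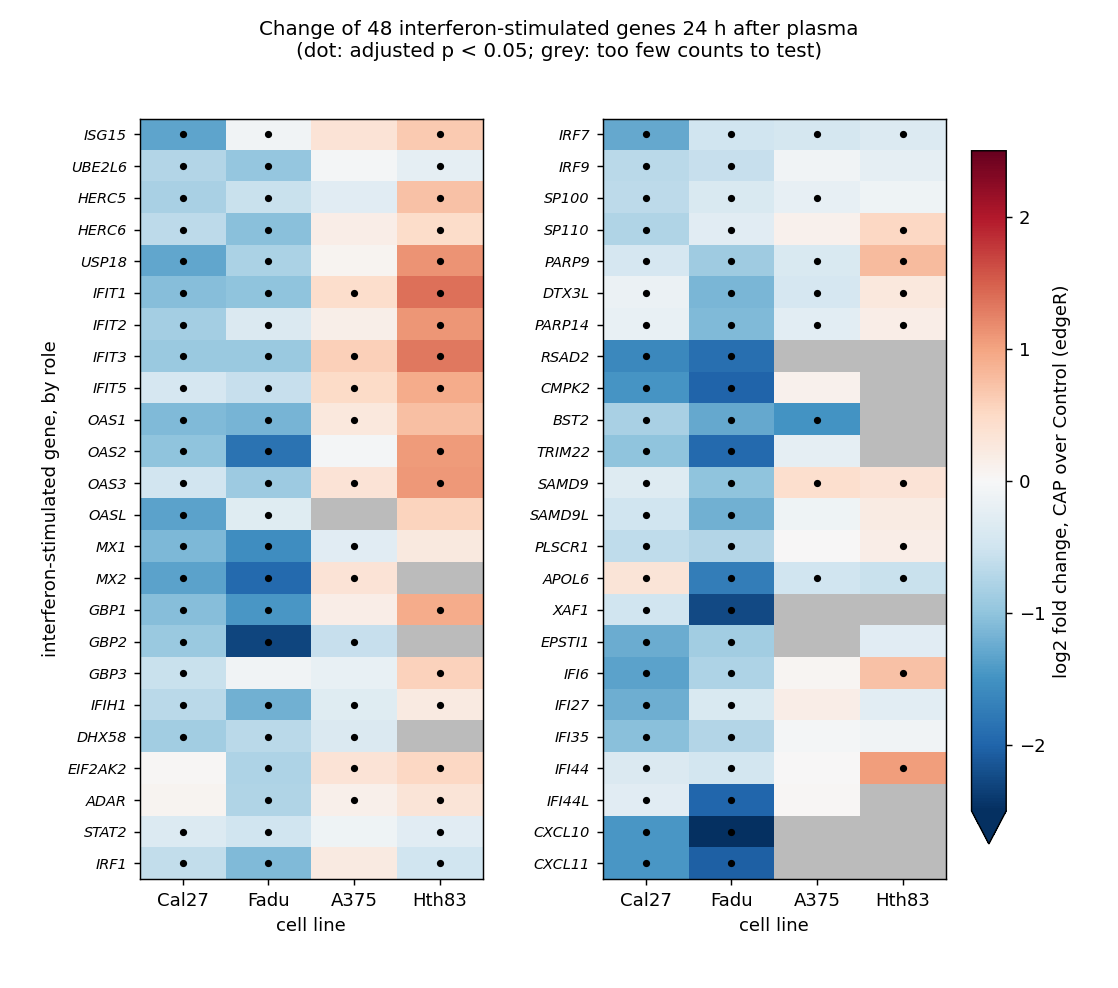
Log2 fold change, CAP over Control (edgeR), of the 48 interferon-stimulated genes in each line, ordered by role; red is higher and blue lower in CAP, a dot marks an adjusted p under 0.05 and grey marks too few counts to test. Cal27 holds 45 and Fadu 47 lower members, while Hth83 holds 23 higher ones.

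ISGylation is the attachment of ISG15 to other proteins. ISG15 is the modifier, UBE2L6 the conjugating enzyme, HERC5 the main ligase in human cells, HERC6 a relative of HERC5, and USP18 removes ISG15 and also blocks the type I receptor. All 5 genes fell in Cal27 and in Fadu, 4 rose and 1 (UBE2L6) fell in Hth83, and 0 of 5 passed in A375. The fall of UBE2L6 in Hth83 was small (log2 change -0.23, adjusted p 0.0347), and its call was lost on log2(TPM + 1). ISG15 had 266, 275 and 279 CPM in CAP and 712, 694 and 638 CPM in Control Cal27, with CPM scaled by TMM here and below. Every CAP library lay far below every Control library, a log2 change of -1.32 ± 0.038 (SE) with adjusted p 5.71e-23. In Fadu ISG15 had 234, 209 and 234 CPM in CAP and 246, 236 and 237 CPM in Control libraries, groups that nearly met. The change there was -0.087 ± 0.036 (SE) with adjusted p 0.0385, and it was 0.018 with total-count scaling (adjusted p 0.698), so that its direction in Fadu turned with the scaling. The Fadu call was lost without Control 1 (-0.06, adjusted p 0.23), Control 2 (-0.095, adjusted p 0.066), Control 3 (-0.092, adjusted p 0.0765) or CAP 2 (-0.033, adjusted p 0.47).

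ISG15 rose in Hth83, with 8.97, 10.2 and 7.95 CPM in CAP and 6.6, 5.04 and 5.6 CPM in Control Hth83. CAP lay above Control throughout, a log2 change of 0.65 ± 0.14 (SE) with adjusted p 0.00022. In A375 ISG15 had 3.81, 4.33 and 4.24 CPM in CAP and 3.72, 3.14 and 2.8 CPM in Control libraries. Its change of 0.35 there did not pass (adjusted p 0.0792), though it did without Control 1 (0.48, adjusted p 0.0431).

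USP18 had 30.5, 29.1 and 29.3 CPM in CAP and 68.3, 75.1 and 75.7 CPM in Control Cal27, a log2 change of -1.302, against -0.80 in Fadu. Hth83 libraries had 1.82, 2.09 and 1.29 CPM in CAP and 0.836, 1.11 and 0.412 CPM in Control libraries, low in both but higher in every CAP library (log2 change 1.11 ± 0.32 SE, adjusted p 0.0044). USP18 shares 23.4% of its 50-base words with other annotated genes, so its counts are uncertain. HERC5 had 35.7, 39.2 and 36.1 CPM in CAP and 23.2, 23.6 and 20 CPM in Control Hth83 and rose there by 0.73, while it fell by 0.81 in Cal27 and 0.56 in Fadu. In A375 its change of -0.27 did not pass (adjusted p 0.056), whereas it did without Control 3 (-0.38, adjusted p 0.015) or CAP 2 (-0.37, adjusted p 0.0208) and in several other settings.

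The IFIT proteins bind viral RNA, and the OAS enzymes make an oligoadenylate messenger that activates RNase L when they meet double-stranded RNA. All 8 genes fell in Cal27 and in Fadu, with median log2 changes of -0.97 and -0.91, although the call of IFIT5 in Cal27 (-0.42) was lost on log2(TPM + 1) (-0.18, adjusted p 0.0813). In Hth83, 6 rose and 0 fell, with OAS1 and OASL not passing, and the median was 1.07. Most of these genes were low in that line, with a median of 0.804 TPM over the 8 in Control Hth83. In A375, 5 of the 7 tested rose and 0 fell, with a median of 0.34.

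IFIT1 had 4.43, 3.65 and 3.83 CPM in CAP and 1.05, 1.69 and 1.89 CPM in Control Hth83, on 407 counts in CAP and 155 in Control libraries. That was the largest rise of a tested member in Hth83, a log2 change of 1.38 ± 0.22 (SE) with adjusted p 5.3e-06. In A375 IFIT1 had 10, 10.9 and 9.65 CPM in CAP and 7.53, 7.29 and 7.64 CPM in Control libraries (log2 change 0.44 ± 0.11 SE, adjusted p 0.000856). CAP lay above Control in both lines without overlap. In Cal27 IFIT1 had 111, 118 and 129 CPM in CAP and 257, 256 and 240 CPM in Control libraries, a change of -1.07 ± 0.045 (SE). Fadu libraries had 78, 72.8 and 65.8 CPM in CAP and 147, 142 and 143 CPM in Control libraries, a change of -0.998 ± 0.045 (SE). CAP lay below Control without overlap in both, and yet stayed above every A375 and Hth83 library.

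OAS3 had 159, 153 and 161 CPM in CAP and 75.2, 79 and 70 CPM in Control Hth83, a rise of 1.08 ± 0.052 (SE) on the log2 scale with adjusted p 8.4e-17. In A375 it had 105, 92.5 and 95.1 CPM in CAP and 75.4, 78.2 and 77.9 CPM in Control libraries, a rise of 0.34. All CAP libraries were higher in both lines. In Cal27 OAS3 had 437, 419 and 415 CPM in CAP and 572, 578 and 631 CPM in Control libraries, a fall of 0.49. The Fadu values were 350, 330 and 324 CPM in CAP and 635, 609 and 628 CPM in Control libraries, a fall of 0.90. All CAP libraries were lower in these lines.

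IFIT3, IFIT2 and IFIT5 rose with IFIT1 in Hth83, by 1.32, 1.09 and 0.94. IFIT3 and IFIT2 were low there, with means of 3.22 and 4.1 CPM in CAP and 1.29 and 1.93 CPM in Control Hth83. IFIT5 averaged 37.8 CPM in CAP and 19.7 CPM in Control Hth83. In A375 IFIT3 rose by 0.59 and IFIT5 by 0.47, while the change of IFIT2 was 0.14 and did not pass (adjusted p 0.345). OAS1 had 13.6, 12 and 13.3 CPM in CAP and 11, 10.8 and 10.4 CPM in Control A375, a change of 0.27 that passed (adjusted p 0.017) but did not without CAP 3 (0.25, adjusted p 0.0638) or with total-count scaling (0.20, adjusted p 0.0772). In Hth83 OAS1 had 0.925, 0.444 and 1.43 CPM in CAP and 0.809, 0.47 and 0.378 CPM in Control libraries, and these overlapped (log2 change 0.74, adjusted p 0.138), though the test passed without CAP 2 (1.07, adjusted p 0.0288). OASL, an OAS relative without synthetase activity, fell by 1.35 in Cal27 and by 0.29 in Fadu. The plot of levels by library shows 6 members in all 4 lines.

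**Figure D3:**
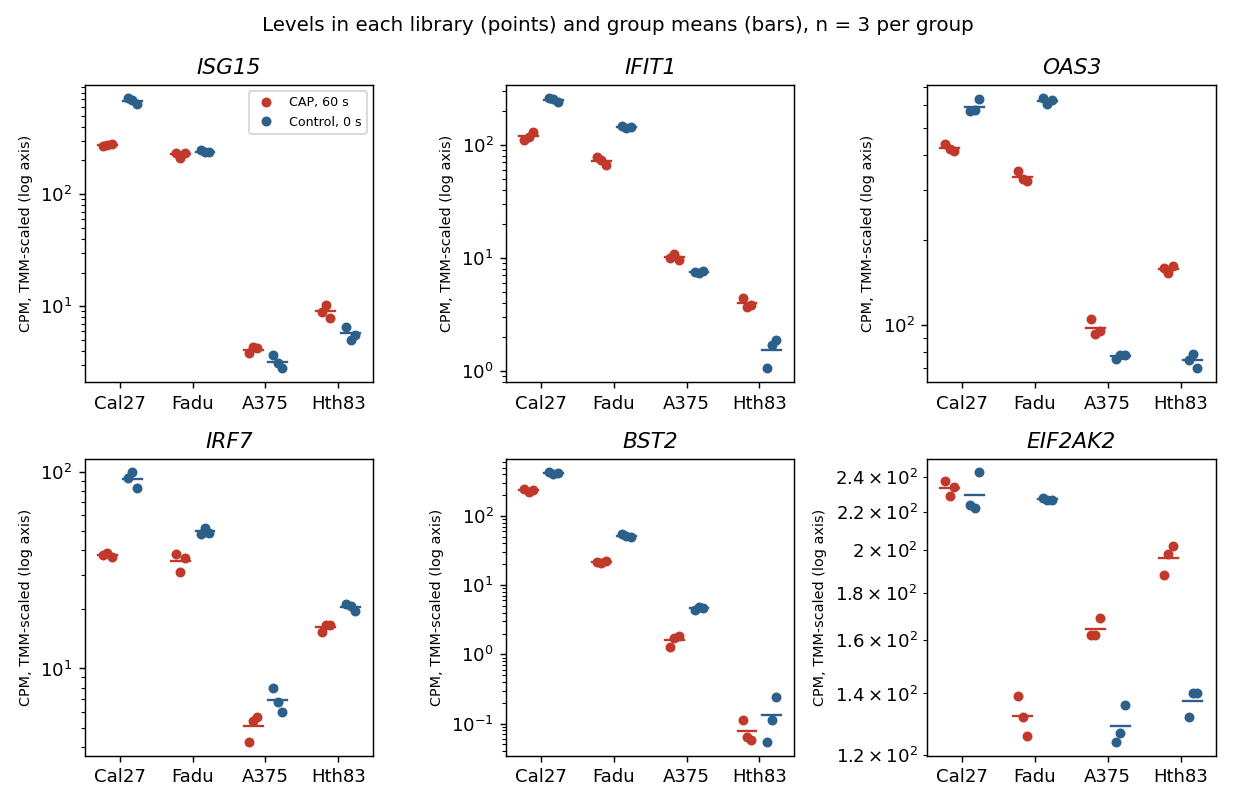
CPM (TMM-scaled, log axis) of ISG15, IFIT1, OAS3, IRF7, BST2 and EIF2AK2 in each of the 3 CAP (red) and 3 Control (blue) libraries of the 4 lines, points for libraries and bars for group means. IFIT1 and OAS3 are lower in CAP in Cal27 and Fadu and higher in A375 and Hth83, while IRF7 is lower in CAP in every line.

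MX1 and MX2 are dynamin-like GTPases that block viruses, and the guanylate-binding proteins GBP1, GBP2 and GBP3 attack vacuoles and membranes of pathogens. In Cal27 5 of 5 fell, in Fadu 4 of 5 fell, and in Hth83 2 of the 3 tested (GBP1 and GBP3) rose. A375 was split, with MX2 higher and MX1 and GBP2 lower. MX1 had 281, 275 and 270 CPM in CAP and 598, 590 and 609 CPM in Control Cal27, a change of -1.12 ± 0.034 (SE). In Fadu the gene had 53.5, 49.7 and 45.1 CPM in CAP and 142, 143 and 150 CPM in Control libraries, a change of -1.56 ± 0.047 (SE). Every CAP library lay below every Control library in both. In Hth83 MX1 had 1.49, 1.65 and 1.77 CPM in CAP and 1.19, 1.36 and 1.61 CPM in Control libraries, which overlapped (adjusted p 0.463).

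MX2 had 101, 93.3 and 95.9 CPM in CAP and 76, 75 and 76.8 CPM in Control A375, a rise of 0.35 ± 0.044 (SE) with adjusted p 9.48e-08. MX1 had 7.99, 7.31 and 7.69 CPM in CAP and 9.32, 8.79 and 10 CPM in Control A375, a change of -0.29 ± 0.11 (SE) with adjusted p 0.0264. The neighbouring genes thus moved apart in A375, but the MX1 call was lost without Control 1 (-0.29, adjusted p 0.0636), Control 3 (-0.24, adjusted p 0.116), CAP 2 (-0.26, adjusted p 0.0827) or CAP 3 (-0.30, adjusted p 0.0577). MX2 fell by 1.34 in Cal27 and 1.95 in Fadu.

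GBP1 had 15.6, 16.7 and 18.9 CPM in CAP and 8.49, 8.77 and 9.58 CPM in Control Hth83, with no overlap (log2 change 0.93 ± 0.11 SE, adjusted p 1.1e-08). It fell by 1.06 in Cal27 and 1.45 in Fadu, and its change of 0.17 in A375 did not pass (adjusted p 0.131), though it did without CAP 2 (0.25, adjusted p 0.0339). GBP2 had 46.9, 51.8 and 47.2 CPM in CAP and 67.9, 72.4 and 77.5 CPM in Control A375, a fall of 0.57. In Fadu GBP2 had 4.76, 3.88 and 3.33 CPM in CAP and 18.5, 19.3 and 20.5 CPM in Control libraries, a fall of 2.29, and it fell by 0.93 in Cal27. No CAP library reached a Control library in these 3 lines. GBP1 shares 9.62% and GBP2 10.2% of its 50-base words with other annotated genes.

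IFIH1 (MDA5) and DHX58 (LGP2) sense double-stranded RNA, EIF2AK2 (PKR) halts translation on it, and ADAR edits it. In Fadu 4 of 4 fell, in Hth83 3 of the 3 tested rose, in A375 2 rose (EIF2AK2 and ADAR) and 2 fell (IFIH1 and DHX58), and in Cal27 IFIH1 and DHX58 fell. EIF2AK2 had 188, 198 and 202 CPM in CAP and 132, 140 and 140 CPM in Control Hth83, a rise of 0.51. In Fadu it had 139, 132 and 126 CPM in CAP and 228, 227 and 227 CPM in Control libraries, a fall of 0.78. CAP and Control were apart in both lines, in opposite directions. In A375 it had 162, 162 and 169 CPM in CAP and 124, 127 and 136 CPM in Control libraries, a rise of 0.35. In Cal27 it had 238, 229 and 234 CPM in CAP and 224, 222 and 243 CPM in Control libraries, which overlapped (log2 change 0.025, adjusted p 0.638), though it passed with total-count scaling (0.11, adjusted p 0.0237) and on log2(TPM + 1) (0.26, adjusted p 0.00975).

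ADAR had 423, 415 and 402 CPM in CAP and 699, 705 and 696 CPM in Control Fadu, a fall of 0.76. The Hth83 values were 307, 299 and 327 CPM in CAP and 243, 253 and 249 CPM in Control libraries, a rise of 0.32. The groups did not overlap in either line. In A375 it rose by 0.13 (adjusted p 0.00151), a call lost with total-count scaling (0.059, adjusted p 0.121) and on log2(TPM + 1) (0.038, adjusted p 0.377). Its change of 0.068 in Cal27 did not pass (adjusted p 0.118), but it did without Control 3 (0.11, adjusted p 0.00357), with total-count scaling (0.15, adjusted p 0.000633) and on log2(TPM + 1) (0.30, adjusted p 0.00587).

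IFIH1 fell by 0.67 in Cal27 and 1.19 in Fadu. In A375 it had 6.62, 6.93 and 6.35 CPM in CAP and 8.38, 7.11 and 9.07 CPM in Control libraries (log2 change -0.30, adjusted p 0.0357). CAP lay below Control, but the call was lost without Control 1 (-0.28, adjusted p 0.11), Control 3 (-0.23, adjusted p 0.178), CAP 1 (-0.30, adjusted p 0.0592) or CAP 3 (-0.27, adjusted p 0.112). In Hth83 the gene had 26, 27.9 and 25.9 CPM in CAP and 23.4, 22.4 and 22.8 CPM in Control libraries, a rise of 0.22 (adjusted p 0.0207) that was lost without Control 2 (0.20, adjusted p 0.0727) or CAP 2 (0.18, adjusted p 0.0736).

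Of the 6 transcription factors and nuclear-body proteins, 3 (STAT2, IRF1 and IRF7) fell in Hth83, SP110 rose, and IRF9 and SP100 did not pass. In Cal27 and in Fadu 6 of 6 of this group fell, and in A375 IRF7 and SP100 fell and 0 rose. IRF7, the factor that amplifies type I interferon genes, had 37.8, 38.5 and 37 CPM in CAP and 92.7, 99.5 and 82.9 CPM in Control Cal27, a fall of 1.28. Fadu libraries had 38.3, 31.1 and 36.3 CPM in CAP and 48.4, 52 and 49.1 CPM in Control libraries, a fall of 0.50. In Hth83 it had 15.4, 16.6 and 16.7 CPM in CAP and 21.3, 20.8 and 19.5 CPM in Control libraries, a fall of 0.34 (adjusted p 0.00152). CAP was lower than Control without overlap in each of these lines. In A375 it had 4.22, 5.4 and 5.69 CPM in CAP and 7.97, 6.74 and 6 CPM in Control libraries, also without overlap (log2 change -0.44 ± 0.14 SE, adjusted p 0.0101), but the call was lost without Control 1 (-0.31, adjusted p 0.126) or CAP 1 (-0.32, adjusted p 0.0598) and on log2(TPM + 1) (-0.51, adjusted p 0.0614).

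IRF1, which drives antigen presentation genes, had 22.8, 19.8 and 25.2 CPM in CAP and 32.9, 27.7 and 35.4 CPM in Control Hth83 (log2 change -0.50 ± 0.092 SE, adjusted p 5.65e-05). STAT2, a factor activated by type I interferon receptors, had 50.8, 57.2 and 45.3 CPM in CAP and 58.9, 63.7 and 62.9 CPM in Control Hth83 (log2 change -0.28 ± 0.069 SE, adjusted p 0.0013). Both were lower in every CAP library of Hth83, the line where 23 members rose, although neither call held on log2(TPM + 1) (0.053 for IRF1 and 0.142 for STAT2 as adjusted p, limma). The change of IRF1 was -0.61 in Cal27 and -1.101 in Fadu, and STAT2 fell there by 0.33 and 0.49, though in Cal27 its call was lost on log2(TPM + 1) (-0.098, adjusted p 0.2). IRF9, the DNA-binding part of the complex, fell by 0.57 in Fadu and by 0.67 in Cal27, where the call was lost without Control 3 (-0.46, adjusted p 0.0976) and on log2(TPM + 1) (-0.35, adjusted p 0.179). IRF9 shares 43.8% and IRF1 22% of its 50-base words with other annotated genes, so both are uncertain.

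PARP9 and DTX3L form a complex that ubiquitinates host and viral proteins, and PARP14 is a mono-ADP-ribosyltransferase. The 3 genes fell in Cal27, Fadu and A375 and rose in Hth83, although PARP14 and DTX3L turned in Cal27 on the TPM scale. PARP9 and DTX3L overlap on opposite strands of chromosome 3, and the strand setting of the counting is not known here, so reads of the overlap cannot be told apart. PARP14 had 168, 167 and 158 CPM in CAP and 349, 360 and 354 CPM in Control Fadu, a fall of 1.11. Hth83 libraries had 111, 108 and 113 CPM in CAP and 96.9, 101 and 99.3 CPM in Control libraries, a rise of 0.16 (adjusted p 0.00713). The rise in Hth83 was small beside the fall in Fadu, though the groups did not overlap in either. In A375 it had 64.3, 75.8 and 66.1 CPM in CAP and 85.9, 81.9 and 78.2 CPM in Control libraries, a fall of 0.26. In Cal27 it fell by 0.18 (adjusted p 0.000649), but its change was 0.058, adjusted p 0.484 on log2(TPM + 1), so that its direction there turned with the scaling. Without Control 3 it was -0.11. DTX3L fell there by 0.15, while its mean was 185 ± 9.05 TPM in CAP and 175 ± 5.92 TPM in Control libraries, so that it too turned with the scaling. PARP9 rose by 0.80 in Hth83 and fell by 0.89 in Fadu, 0.41 in Cal27 and 0.38 in A375.

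Of the 10 other antiviral effectors, 9 fell and 1 rose in Cal27, 10 fell in Fadu, 2 rose and 1 fell of the 5 tested in Hth83, and 1 rose and 2 fell of the 7 tested in A375. RSAD2 (viperin) makes a chain-terminating nucleotide. It had 18.5, 19.9 and 18.4 CPM in CAP and 60.5, 57.3 and 55.6 CPM in Control Cal27, the largest fall of a member in that line (log2 change -1.61 ± 0.065 SE, adjusted p 2.4e-19). The Fadu values were 5.73, 4.86 and 4.53 CPM in CAP and 17, 19.2 and 19.4 CPM in Control libraries, a fall of 1.88. CAP and Control were far apart in both lines. CMPK2, a nucleotide kinase whose gene overlaps RSAD2 on the opposite strand of chromosome 2, fell by 1.47 in Cal27 and 2.01 in Fadu. XAF1, which antagonises the apoptosis inhibitor XIAP, had 4.62, 4.21 and 3.73 CPM in CAP and 19.4, 19.5 and 20.9 CPM in Control Fadu and fell there by 2.25, against 0.51 in Cal27, and it shares 34.7% of its 50-base words with other annotated genes.

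BST2 fell in each line where it could be tested. In A375 it had 1.27, 1.75 and 1.86 CPM in CAP and 4.35, 4.85 and 4.74 CPM in Control libraries, the largest fall of a member in that line (log2 change -1.49 ± 0.19 SE, adjusted p 6.1e-08), on 180 counts in CAP and 522 in Control libraries. In Cal27 it had 247, 223 and 238 CPM in CAP and 428, 398 and 413 CPM in Control libraries, a fall of 0.81. In Fadu the gene had 21.5, 20.8 and 22.3 CPM in CAP and 54.5, 51.6 and 50 CPM in Control libraries, a fall of 1.28. No CAP library reached a Control library in any of the 3 lines. Hth83 held 8 counts in CAP and 13 in Control libraries, too few to test.

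APOL6, an apolipoprotein L family member linked to cell death, went against most members in both Cal27 and Hth83. It had 185, 178 and 178 CPM in CAP and 146, 137 and 152 CPM in Control Cal27, a rise in the line where 45 members fell (log2 change 0.31 ± 0.042 SE, adjusted p 1.7e-07). The Hth83 values were 38.7, 41.1 and 38 CPM in CAP and 57.4, 55.7 and 60.7 CPM in Control libraries. That was the largest fall of a tested member in the line where 23 members rose (log2 change -0.56 ± 0.063 SE, adjusted p 8.38e-09). In Fadu it had 86.1, 77.4 and 78.3 CPM in CAP and 258, 269 and 269 CPM in Control libraries, a fall of 1.72. CAP and Control libraries of APOL6 did not overlap in any line, and in A375 it fell by 0.50.

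The 5 genes named IFI all fell in Cal27 and in Fadu, 0 of 5 passed in A375, and 2 of the 4 tested (IFI6 and IFI44) rose in Hth83. IFI6, a small membrane protein that limits flavivirus replication, had 270, 283 and 303 CPM in CAP and 664, 789 and 709 CPM in Control Cal27, a fall of 1.34. Fadu libraries had 87.8, 72.1 and 77.3 CPM in CAP and 126, 142 and 138 CPM in Control libraries, a fall of 0.78. In Hth83 the gene had 4.88, 6.41 and 5.57 CPM in CAP and 3.88, 3.02 and 3.26 CPM in Control libraries, a rise of 0.73 (adjusted p 0.000656). CAP and Control did not overlap in these lines, whereas in A375 they did (adjusted p 0.652). IFI27, a mitochondrial and nuclear membrane protein, had 525, 483 and 501 CPM in CAP and 634, 665 and 654 CPM in Control Fadu, a fall of 0.37, and it fell by 1.22 in Cal27. In Hth83 IFI27 had 1.23, 1.33 and 0.915 CPM in CAP and 1.13, 1.69 and 1.37 CPM in Control libraries, which overlapped.

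CXCL10 and CXCL11 attract T cells through CXCR3. Both fell in Cal27 and Fadu, and both held too few counts to test in A375 and Hth83, where a line had at most 4 counts of either in CAP and 6 in Control libraries. CXCL10 had 9.49, 10.4 and 10.2 CPM in CAP and 27.1, 26.9 and 27.7 CPM in Control Cal27, a change of -1.45 ± 0.084 (SE). The Fadu values were 0.235, 0.164 and 0 CPM in CAP and 1.7, 1.99 and 1.45 CPM in Control libraries, on 13 counts in CAP and 170 in Control libraries (log2 change -3.67 ± 0.47 SE, adjusted p 1.32e-10). No CAP library reached a Control library in either line. CXCL11 had 8.35, 7.49 and 9.09 CPM in CAP and 20, 24.2 and 23.9 CPM in Control Cal27, a change of -1.45 ± 0.1 (SE). In Fadu it fell by 2.05 (adjusted p 0.000105) on 26 counts in CAP and 106 in Control libraries, a call lost on log2(TPM + 0.1) (-2.03, adjusted p 0.0616).

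The CAP effects of the lines were set against each other in a fit of all 24 libraries. The effect differed between lines for 46 of 48 members (edgeR F test, adjusted p under 0.05), while 56.9% of all genes were called, and IRF9 and CXCL11 did not pass (adjusted p 0.318 and 0.401). The effect in Hth83 minus that in Fadu was higher for 39 members and lower for 0, with 17.6% of all genes higher and 18.1% lower. Hth83 minus Cal27 was higher for 37 and lower for 1, with 17.2% and 17.8% of all genes. A375 minus Fadu was higher for 35 and lower for 0, with 18.0% of all genes in each direction. A375 minus Cal27 was higher for 34 and lower for 3, with 17.2% and 18.3% of all genes. Hth83 minus A375 was higher for 22 and lower for 1, with 13.7% and 13.6% of all genes.

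Cal27 and Fadu, where nearly all members fell, also differed from each other. The effect in Fadu minus that in Cal27 was higher for 13 members and lower for 24, with 19.3% and 19.1% of all genes. For ISG15 the difference was 1.25 ± 0.073 on the log2 scale (adjusted p 3.46e-18) and for OASL 1.07 ± 0.081 (adjusted p 6.26e-16), so that both fell further in Cal27. For APOL6 it was -2.02 ± 0.073 (adjusted p 1.09e-27) and for GBP2 -1.35 ± 0.15 (adjusted p 8.4e-11). For IFIT1 it was 0.088 ± 0.081 and did not pass (adjusted p 0.45). The effect on OAS3 in Hth83 lay above that in Fadu by 1.96 ± 0.062 (adjusted p 1.78e-30) and above that in A375 by 0.76 ± 0.064 (adjusted p 6.1e-14).

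Of 21 interferon ligand genes, 5 had enough counts to test in Cal27 and all 5 fell, while 2 could be tested in Fadu and 1 in each of A375 and Hth83. Their summed level averaged 52.3 ± 6.38 TPM in CAP and 120 ± 14.4 TPM in Control Cal27, and 43.3 ± 4.94 TPM in CAP and 37.5 ± 2.15 TPM in Control Fadu. It averaged 22.6 ± 3.87 TPM in CAP and 27.8 ± 2.46 TPM in Control A375, and 24.9 ± 2.95 TPM in CAP and 33.1 ± 3.99 TPM in Control Hth83 (SD, n = 3 each). The widest gap between CAP and Control was in Cal27. IFNB1, the interferon beta gene, had 0.17, 0.708 and 0.903 CPM in CAP and 2.14, 3.55 and 2.26 CPM in Control Cal27, on 62 counts in CAP and 223 in Control libraries (log2 change -2.16 ± 0.37 SE, adjusted p 2.68e-05). IFNL1, a type III interferon, had 2.44, 1.25 and 1.66 CPM in CAP and 5.61, 4.73 and 4.78 CPM in Control Cal27 (log2 change -1.499 ± 0.21 SE, adjusted p 4.15e-07). No CAP library reached a Control library for either gene. IFNL2 and IFNL3 also fell in Cal27, with log2 changes of -2.16 and -1.595, although they share 32% and 31.4% of their 50-base words with other genes, each other among them. IFNE, an epithelial interferon, fell by 0.85 in Cal27 and rose by 0.56 in Fadu (adjusted p 0.0077). In A375 and Hth83 IFNE held most of the summed level, with 20 ± 4.05 TPM in CAP and 26.2 ± 3.07 TPM in Control A375 and 24.3 ± 3.97 TPM in CAP and 32.3 ± 4.64 TPM in Control Hth83. Its change did not pass in A375 (adjusted p 0.223) or in Hth83 (adjusted p 0.0553). In Fadu IFNL1 had 0.335, 0.137 and 0.462 CPM in CAP and 0.371, 0.497 and 0.945 CPM in Control libraries, which overlapped (adjusted p 0.12). IFNB1 had 0 counts in CAP and 5 in Control libraries of Fadu, and IFNL1 had 0 counts in all A375 and Hth83 libraries.

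**Figure D4:**
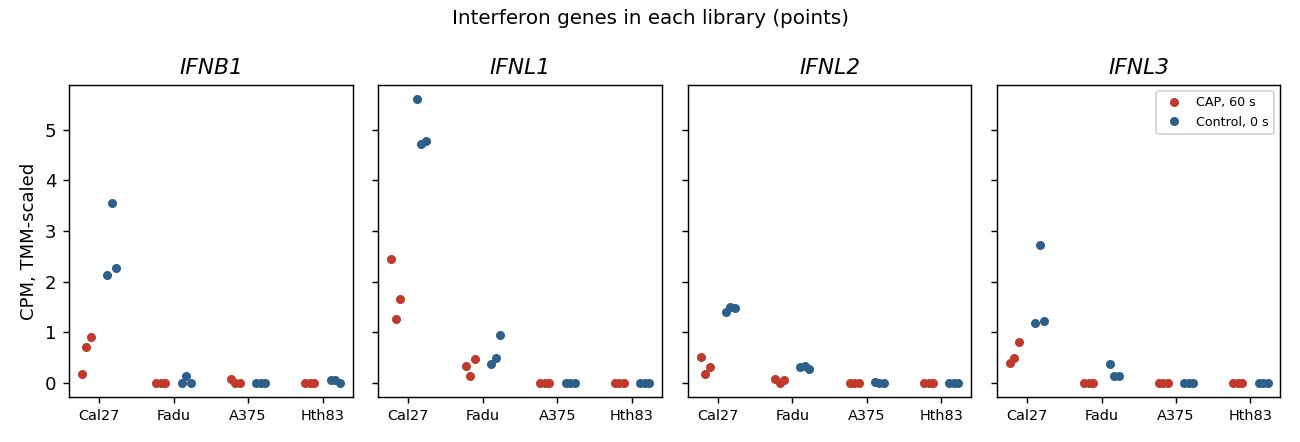
CPM (TMM-scaled, linear axis) of the interferon genes IFNB1, IFNL1, IFNL2 and IFNL3 in each of the 3 CAP (red) and 3 Control (blue) libraries of the 4 lines. In Cal27 every CAP library lies below every Control library for each gene, and A375 and Hth83 lie at or near 0.

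Receptors and signalling genes outside the 48 formed short lists whose counts were not tested against those of all genes, 21.9% higher and 23.2% lower in Cal27, 26.3% and 27.0% in Fadu, 25.7% and 24.8% in A375 and 25.9% and 24.2% in Hth83. Of 6 receptor genes, 2 rose and 1 fell in Cal27, 1 rose and 2 fell in Fadu, 1 rose and 2 fell in A375, and 0 rose and 2 fell of the 5 tested in Hth83. IFNAR1, a type I receptor chain, rose by 0.32 in Cal27 and 0.42 in A375, fell by 0.22 in Fadu and did not pass in Hth83 (adjusted p 0.972). IFNGR1, the interferon gamma receptor chain, had 125, 124 and 114 CPM in CAP and 237, 241 and 238 CPM in Control Fadu and fell there by 0.98, against 0.49 in Cal27 and 0.23 in Hth83.

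Among 12 genes of nucleic acid sensing and its adaptors, 3 rose and 4 fell in Cal27, 4 rose and 6 fell of 11 tested in Fadu, 6 rose and 2 fell of 10 in A375, and 2 rose and 1 fell of 11 in Hth83. TLR3, the endosomal sensor of double-stranded RNA, had 6.97, 5.08 and 6.68 CPM in CAP and 21.7, 22.5 and 21.2 CPM in Control Fadu, a fall of 1.81. TRIM25, a ligase that activates RIG-I, had 134, 130 and 143 CPM in CAP and 263, 257 and 294 CPM in Control Hth83, a fall of 0.996 in the line where 23 members rose. IKBKE, a kinase that activates IRF3 and IRF7, rose by 0.83 in Hth83. CGAS, the cytosolic DNA sensor, averaged 0.0128 ± 0.0221 TPM in CAP and 0.021 ± 0.025 TPM in Control A375, and 28.5 ± 0.847 TPM in CAP and 27.4 ± 0.352 TPM in Control Hth83, so that it was all but missing from A375.

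Of 12 genes that restrain signalling or sensing, 2 rose and 5 fell of 11 tested in Cal27, 2 rose and 6 fell of 11 in Fadu, 4 rose and 1 fell of 10 in A375, and 6 rose and 2 fell of 11 in Hth83. SOCS1, an inhibitor of JAK kinases that interferon induces, had 4.29, 3.85 and 3.66 CPM in CAP and 2.16, 2.1 and 1.75 CPM in Control Fadu, a rise of 0.97 (adjusted p 1.65e-05) in the line where 47 members fell. In Cal27 it had 2.29, 2.59 and 2.92 CPM in CAP and 4.5, 4.98 and 4.65 CPM in Control libraries, a fall of 0.86. Hth83 libraries had 1.68, 2.22 and 0.772 CPM in CAP and 2.7, 3.04 and 2.4 CPM in Control libraries, a fall of 0.81. The groups did not overlap in any of these lines. SAMHD1, a nucleotide hydrolase, rose by 0.80 in Hth83 and fell by 0.86 in Fadu and 0.50 in Cal27.

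The promoter letters can be set beside the changes of the 38 members with a window. In Hth83, 17 rose and 0 fell of the 20 tested members with ISRE letters, while 3 rose and 3 fell of the 11 tested without them. Those 3 that fell were UBE2L6, STAT2 and IRF1. On log2(TPM + 1) all 3 of these calls were lost, and the 2 members still lower in Hth83 were APOL6 and IRF7. The contrast in falls between members with and without the letters thus depended on the scaling. APOL6 and IRF7, which also fell, had no window. The untreated median in Hth83 was 6.12 TPM with the letters and 2.92 TPM without them, and the part of this level was not tested. Changes of all genes with and without the letters were not counted. In Cal27, 23 of 24 members with the letters fell and 13 of 14 without them. In Fadu, 23 of 24 with the letters fell and 14 of 14 without them, and in A375 6 rose and 6 fell of 21 tested with them and 2 rose and 1 fell of 12 without them.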

How the data were processed

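Per the labels, RNA was extracted in Trizol, libraries came from the SMARTER mRNA-Seq kit, and the sequencer was a HiSeq3000. The submitters' processing notes name HISAT2 and GRCh38. For the counting tool, annotation, strand setting and gene lengths the sources used here say nothing. The authors deposited raw counts per gene and TPM for each line. Relative to the median gene, the lengths behind the deposited TPM departed from merged exon lengths by 0.379 to 6.24 times for members. The TPM of a gene is therefore best compared between lines, while sums, medians and shares of TPM over several genes carry these departures. IDs were named by a symbol table (61415) and by GENCODE 29 (105). Counts were tested with edgeR 4.0.16 (R 4.3.3) per line, CAP against Control: TMM scaling, filterByExpr (minimum count 10, total 15), robust quasi-likelihood F tests, adjusted p under 0.05. Fits of 24 libraries gave the interaction, and fits of 12 Control libraries the untreated differences. Alternatives were DESeq2 1.42.0, limma 3.58.1 on TPM of at least 1 in 3 libraries, other scalings and filters, a replicate block and leaving out each library. The steps were also run on simulated data in which few genes changed, so that run does not test the scaling where many genes change. The members and lists were chosen with earlier results of these data known. Genes named were a panel of 24 members, plus the 3 largest rises and falls per line with adjusted p under 0.05 and at least 1 TPM in the higher group. Other members and pathway genes given with values were chosen after their values were seen. Results for some genes of the pathway lists are not reported here.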

Additional observations from a re-analysis of the deposited data

Results flagged for a closer look

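The effect of CAP differed between the 4 lines for 29 of the 31 named members (edgeR quasi-likelihood F test of the interaction over 24 libraries, Benjamini-Hochberg adjusted over all genes), which is why they are listed, while 56.9% of all genes passed the same test. In the ISGylation group the adjusted p was 4.33e-21 for ISG15, 1.02e-13 for USP18 and 1.57e-16 for HERC5. Among the IFIT and OAS genes it was 1.16e-21 for IFIT1, 5.05e-19 for IFIT2, 2.14e-25 for IFIT3, 6.35e-21 for IFIT5, 1.17e-15 for OAS1, 1.12e-30 for OAS3 and 7.72e-16 for OASL. Among the GTPases it was 2.38e-18 for MX1, 9.29e-27 for MX2, 4.53e-26 for GBP1 and 3.33e-14 for GBP2. For the genes of double-stranded RNA it was 3.87e-17 for IFIH1, 1.27e-23 for EIF2AK2 and 5.38e-23 for ADAR, and for the transcription factors 0.00117 for STAT2, 1.13e-10 for IRF1 and 5.23e-10 for IRF7. For the other effectors it was 1.29e-20 for PARP14, 0.0139 for RSAD2, 6.1e-07 for BST2, 7.08e-27 for APOL6, 6.07e-15 for CMPK2 and 1.12e-10 for XAF1. For the IFI genes and the chemokine it was 1.84e-13 for IFI6, 3.25e-13 for IFI27 and 0.000181 for CXCL10. The effects behind these tests, line by line, are given above, and the test does not say which lines differ. Genes with few or no counts in A375 or Hth83, such as RSAD2, CXCL10, MX2 and XAF1, enter the test with little information from those lines.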

How the results depend on the processing

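Over 34 counts of members, 769 alternative values stayed within 1.5 times the reported count and 14 did not. The 1 member higher in Cal27 became 3 with total-count scaling, 3 on log2(TPM + 1) and 3 on log2(TPM + 0.1) (limma), and was 1 to 2 when a library was left out, with 2 without Control 3. The 5 members lower in Hth83 became 2 on either TPM scale. In the differences between lines, the 13 members higher in Fadu minus Cal27 became 7 on log2(TPM + 1) and 3 on log2(TPM + 0.1), and the 3 lower in A375 minus Cal27 became 6 and 5. The 0 lower in A375 minus Fadu became 1 with total-count scaling, and the 1 lower in Hth83 minus A375 became 2 on either TPM scale and was 1 to 2 when a library was left out, with 2 without Hth83 CAP 2. The cause was not tested. Among the 31 named genes, directions turned for PARP14 in Cal27, at 0.058 on log2(TPM + 1) and 0.059 on log2(TPM + 0.1), and for ISG15 in Fadu, at 0.018 with total-count scaling. DTX3L, not among them, turned in Cal27 in its TPM means. Of 111 results for 31 named genes in a line, 90 kept their side of the threshold under every alternative and 21 did not. Same-numbered CAP and Control libraries did not deviate together (correlations of -0.0226 to 0.0355), and a replicate block gave 1 higher and 45 lower in Cal27, 0 and 47 in Fadu, 9 and 12 in A375, 23 and 5 in Hth83 and 46 members for the interaction. With 3 libraries a group, and members at or near 0 counts in A375 and Hth83, small changes of low genes were not detectable.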
